A study of Rattus norvegicus with 24 samples.

Results

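A set of 10 genes of iron and haem handling were followed across the mRNA libraries of injured and sham-operated rat brain: transferrin (Tf), its receptor (Tfrc), the metal transporters Slc11a2 and Slc11a1, the ferritin chains Fth1 and Ftl1, the exporter ferroportin (Slc40a1), ceruloplasmin (Cp) and the haem oxygenases Hmox1 and Hmox2. Members were found by matching these 10 names to the gene names of the deposited table, and where several loci carried a name the one with the highest mean over all libraries was taken. A locus was found for 9 of the 10 among 26641 named loci. No locus carried the name Ftl1, so the light chain of ferritin is named here without a value. A lower second locus named Tf, at the same listed coordinates, had a mean of 35.7 normalized counts and was not used.

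Polyadenylated RNA was measured in adult male Sprague-Dawley rats 3 months after lateral fluid-percussion injury, in which a fluid pulse is applied to the exposed dura over one side of the brain (TBI), or after sham surgery with the craniectomy but no impact. Perilesional cortex and ipsilateral thalamus were dissected from 1 coronal slice of each rat. Each of the 4 groups (sham cortex, TBI cortex, sham thalamus and TBI thalamus) held 6 libraries, and the 12 rats gave both regions. The injured rats had been picked for sequencing by magnetic resonance imaging signs of chronic inflammation around the lesion, so they stand for that course of injury and not for every outcome of it.

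Iron reaches brain cells mainly as iron-loaded transferrin, which binds the transferrin receptor and is taken into endosomes, from which the divalent metal transporter Slc11a2 moves iron into the cytosol. Surplus iron is stored inside ferritin shells of heavy and light chains, and leaves the cell through ferroportin, helped by ferroxidases such as ceruloplasmin that oxidise it for loading onto transferrin. Haem oxygenases open the haem ring and release iron, carbon monoxide and biliverdin. Hmox1 is the inducible form and Hmox2 the constitutive one. In the brain, oligodendrocytes are the best known source of transferrin mRNA, astrocytes make ceruloplasmin, and microglia and macrophages take up and store iron at sites of damage.

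Libraries held 30568927 to 54608922 fragments assigned to loci. The region labels were borne out by vesicular glutamate transporters: Slc17a7, the form of most cortical neurons, was 45390 to 51322 in sham cortex and 4464 to 9880 in sham thalamus, whereas Slc17a6, the thalamic form, was 894 to 1278 and 23823 to 29859. Some libraries stood apart by markers of tissue next to the dissected regions. The summed level of 11 choroid plexus markers reached 34560 in the TBI cortex and 277673 in the TBI thalamus library of rat 45, against group medians of 1487 and 1851, and it was also high in sham cortex of rat 26 (25079) and in sham thalamus of rat 50 (113412) and rat 34 (71873). The summed level of 8 meningeal and fibroblast markers was highest in rat 45 in both TBI groups (55808 in cortex and 53258 in thalamus) and in rat 34 in sham thalamus (15011). Results that change without rats 34 and 45, or without the 4 rats 26, 34, 45 and 50, are given both ways.

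In the perilesional cortex, TBI raised Cp, Hmox1, Tf and Fth1 and lowered Tfrc and Hmox2. That is 4 of 9 members higher and 2 of 9 lower, against 14.3% and 14.9% of all 15493 loci tested. Cp, Hmox1, Tf and Fth1 rose again in ipsilateral thalamus, and Hmox2, Slc11a2 and Slc40a1 fell, which is 4 of 9 higher against 14.5% of 15564 loci, and 3 of 9 lower against 20.9%. TBI and sham libraries did not overlap at all for 5 of 9 members in cortex (12.5% of all loci tested) and for 6 of 9 in thalamus (18.2%). These counts were made with limma on the log2 scale and Benjamini-Hochberg adjustment over all loci tested, with 0.05 as the threshold, and each effect below is the difference of log2(normalized count + 1), TBI minus sham, with its standard error (SE). In tissue RNA of this kind, fewer cells of a type and less RNA per cell cannot be told apart.

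**Figure D1:**
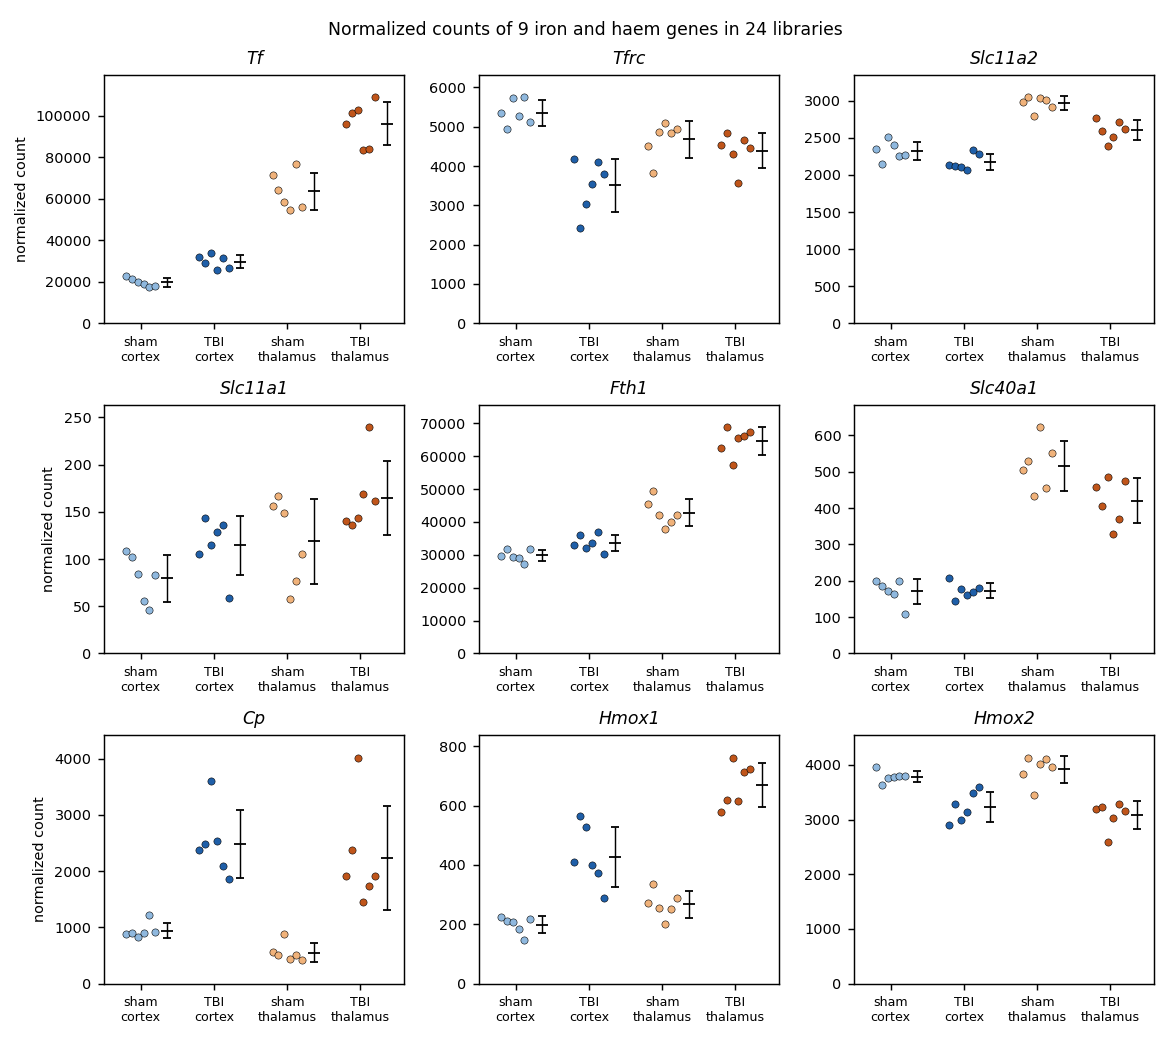
Normalized count (linear axis from 0) of 9 iron and haem genes in the 24 libraries, 1 point per library, with the mean and SD of each group of 6 at the right of its points. Cp, Hmox1 and Tf were higher in every TBI library than in any sham library of the same region, Fth1 was so in the thalamus, and Tfrc was lower in every TBI cortex library.

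Transferrin, the iron carrier, rose to a like extent in both regions. In cortex, Tf was lowest at 17481, had a median of 19265 and was highest at 22904 normalized counts in sham rats, and was 25783, 30208 and 33610 in TBI rats. In thalamus the lowest, median and highest were 54550, 61354 and 76743 in sham rats and 83392, 98788 and 108875 in TBI rats. Every TBI library was above every sham library of its region. The effect was 0.59 ± 0.08 (SE, n = 6 and 6) in cortex (limma, adjusted p = 9.73e-05) and 0.60 ± 0.10 in thalamus (limma, adjusted p = 0.000336). The difference between the regions' effects was 0.01, with a 95% interval of -0.26 to 0.27 (limma, adjusted p = 0.984). Summed over 10 oligodendrocyte markers with a locus, levels overlapped between sham and TBI rats, at 130958 to 176015 and 124050 to 170669 in cortex and at 416461 to 572975 and 406629 to 546979 in thalamus. Of the 10 markers, 4 were higher after TBI in cortex, 2 in thalamus and 0 lower in either. Of all loci, 14.3% were higher and 14.9% lower in cortex, and 14.5% and 20.9% in thalamus. The highest Tf of sham cortex (rat 26), TBI cortex (rat 45) and sham thalamus (rat 50) came from the libraries with the highest choroid plexus markers of those groups. In TBI thalamus the highest Tf was that of rat 63 and not of rat 45, and in sham thalamus Tf of rat 34, at 58424, was under the group median. Without rats 26, 34, 45 and 50 the effect on Tf was 0.58 ± 0.09 in cortex (limma, adjusted p = 0.00251) and 0.70 ± 0.10 in thalamus (limma, adjusted p = 0.000591).

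The transferrin receptor, the entry route for that carrier, behaved differently in each region. Tfrc ran from 4937 through a median of 5310 to 5753 in sham cortex and from 2428 through 3664 to 4172 in TBI cortex. In thalamus it ran from 3817 through 4857 to 5098 in sham rats and from 3574 through 4489 to 4839 in TBI rats. The cortical groups were apart, with rat 24 the lowest. The thalamic groups overlapped, with 3 sham libraries above all TBI libraries and 1 TBI library below all sham libraries. The effect was -0.63 ± 0.11 in cortex (limma, adjusted p = 0.000678) and -0.09 ± 0.08 in thalamus, with a 95% interval of -0.26 to 0.08 (limma, adjusted p = 0.405). The effect in thalamus minus that in cortex was 0.54 ± 0.14 (limma, adjusted p = 0.0218), and 0.50 ± 0.16 without rats 34 and 45 (limma, adjusted p = 0.0807). Neuronal markers were lower in both regions, in 9 of 13 genes in cortex and 11 of 13 in thalamus, and their summed level did not overlap between sham and TBI rats in either (444221 to 472651 against 322602 to 413233 in cortex, 289803 to 342433 against 195133 to 245675 in thalamus). The median effect of the neuronal markers was -0.29 in cortex and -0.48 in thalamus. Of 11 endothelial markers, 2 were higher and 0 lower in cortex, and 6 were higher and 0 lower in thalamus. The shares over all loci were 14.3% higher and 14.9% lower in cortex, and 14.5% and 20.9% in thalamus. The cortical endothelial count was near its share. The part of neurons and of endothelial cells in the fall of Tfrc was not tested.

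Promoter letters are shown for Tf, Tfrc and Cp, the members of the carrier, receptor and ferroxidase roles that moved most clearly. RefSeq promoter windows (build GRCr8) were at hand for 6 of the 10 members, Cp, Slc11a2, Tf, Slc40a1, Hmox2 and Tfrc. Each line below gives the 250 bases before the start on the gene's own strand, with capitals marking any match on either strand to 4 motifs: the TATA box TATAAA, the hypoxia response core ACGTG, the antioxidant response element TGACNNNGC and the CCAAT box CCAAT.
Tf, chr8:112695377-112695626, minus strand: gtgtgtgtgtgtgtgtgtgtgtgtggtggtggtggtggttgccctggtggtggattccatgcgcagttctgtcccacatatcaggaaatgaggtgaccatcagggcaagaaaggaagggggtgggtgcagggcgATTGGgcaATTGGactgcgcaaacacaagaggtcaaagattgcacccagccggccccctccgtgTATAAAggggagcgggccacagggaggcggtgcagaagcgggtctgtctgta
Tfrc, chr11:81690319-81690568, minus strand: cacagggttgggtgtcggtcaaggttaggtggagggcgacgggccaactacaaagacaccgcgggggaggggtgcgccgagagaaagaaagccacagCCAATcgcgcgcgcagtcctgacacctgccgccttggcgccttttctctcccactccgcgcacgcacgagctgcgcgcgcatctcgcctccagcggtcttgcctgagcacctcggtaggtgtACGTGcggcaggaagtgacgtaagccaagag
Cp, chr2:104368420-104368669, plus strand: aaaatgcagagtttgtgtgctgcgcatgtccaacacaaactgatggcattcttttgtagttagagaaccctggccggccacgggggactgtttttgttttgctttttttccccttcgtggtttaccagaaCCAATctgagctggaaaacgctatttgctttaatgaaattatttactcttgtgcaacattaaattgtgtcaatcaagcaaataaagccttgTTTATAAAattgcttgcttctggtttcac

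The TATA box letters stood 52 to 47 bases before the Tf start and 27 to 22 bases before the Cp start, where they overlapped a match on the other strand, and were not in the Tfrc window. Such a match is in 12.9% of the 33469 RefSeq promoter windows of the same length. The Tfrc window held 1 hypoxia response core, 31 to 27 bases before the start, which 16.6% of windows hold, and no window of the 3 held the antioxidant response element, which 10.1% hold. Among the windows not shown, an Hmox2 window held both motifs. The antioxidant response element stood 95 to 87 and the hypoxia response core 11 to 7 bases before its start. The other windows not shown held neither. CCAAT letters, found in 34% of windows, were in all 3. These matches describe letters only.

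Of the metal transporters, Slc11a2 fell in thalamus and Slc11a1 passed the threshold in neither region. Slc11a2, which carries iron out of the endosome, was 2147, 2308 and 2511 (lowest, median, highest) in sham cortex and 2072, 2128 and 2334 in TBI cortex. In thalamus it was 2799, 3000 and 3050 in sham rats and 2397, 2607 and 2775 in TBI rats. The thalamic groups were apart and the cortical groups overlapped. The effect was -0.19 ± 0.04 in thalamus (limma, adjusted p = 0.00432) and -0.09 ± 0.05 in cortex (limma, adjusted p = 0.169), and the difference between them was -0.10, with a 95% interval of -0.23 to 0.03 (limma, adjusted p = 0.383). Slc11a1, the transporter of macrophage phagosomes, was scarce, with as few as 41 fragments in a library. Its values ran from 45.8 to 109 in sham cortex, 58.3 to 144 in TBI cortex, 58.1 to 167 in sham thalamus and 136 to 239 in TBI thalamus, and groups overlapped in both regions. The estimates were 0.52 ± 0.24 in cortex (limma, adjusted p = 0.113) and 0.54 ± 0.25 in thalamus (limma, adjusted p = 0.103), neither past the threshold. Without the TBI cortex library of rat 63, the lowest of its group, the cortical estimate was 0.70 (limma, adjusted p = 0.0158). The Slc11a1 locus is listed with the same coordinates as 7 other loci.

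Ferritin heavy chain, the iron-storing subunit with ferroxidase activity, rose in both regions and more in thalamus. Fth1 was 27310, 29467 and 31895 (lowest, median, highest) in sham cortex and 30162, 33267 and 36947 in TBI cortex. In thalamus it was 37774, 42128 and 49410 in sham rats and 57362, 65898 and 68770 in TBI rats. The thalamic groups were apart, and in cortex 5 of 6 TBI libraries lay above all sham libraries while rat 63 did not. The effect was 0.60 ± 0.07 in thalamus (limma, adjusted p = 2.44e-05) and 0.17 ± 0.06 in cortex (limma, adjusted p = 0.0294). The cortical call was lost when any of sham rats 26, 34, 38 and 50 or TBI rats 24, 52 and 56 was left out, at adjusted p from 0.0504 to 0.0669, without rats 34 and 45 together (limma, adjusted p = 0.0662) and without rats 26, 34, 45 and 50 (limma, adjusted p = 0.291). In all, 11 of 24 alternatives lost the cortical call. The effect in thalamus minus that in cortex was 0.42 ± 0.09 (limma, adjusted p = 0.00438), and 0.45 ± 0.10 without rats 34 and 45 (limma, adjusted p = 0.0102). Fth1 has many processed pseudogenes and its locus shares its listed coordinates with 8 others, so how reads were split among copies could bear on its level.

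Microglial markers were higher after TBI in both regions. Of 14 microglial genes, 13 were higher after TBI in cortex and 14 in thalamus, and their summed level went from 17261 to 18314 in sham cortex to 24489 to 27629 in TBI cortex, and from 18429 to 23930 to 37370 to 48120 in thalamus. The TBI effect was larger in thalamus than in cortex for 8 of the 14, beside 2.72% of all loci for that difference. Within regions, 14.3% of all loci were higher after TBI in cortex and 14.5% in thalamus. Aif1, a cytoskeletal protein of microglia, was 485 to 602 in sham cortex and 765 to 939 in TBI cortex, and 506 to 737 and 1173 to 1503 in thalamus. The part of these cells in the ferritin and haem oxygenase results was not tested.

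For the iron exporter, a call was made in thalamus only, and it depended on the fit. Slc40a1, ferroportin, the known cellular iron exporter of mammals, showed no change past the threshold in cortex, where it was 109, 178 and 200.2 (lowest, median, highest) in sham rats and 144, 174 and 208 in TBI rats. In thalamus it was 433, 517 and 622 in sham rats and 330, 432 and 486 in TBI rats. Both pairs of groups overlapped. The estimate was 0.03 ± 0.14 in cortex, with a 95% interval of -0.26 to 0.33 (limma, adjusted p = 0.880), and -0.30 ± 0.11 in thalamus (limma, adjusted p = 0.04995). The thalamic fall lay at the threshold and did not pass it with TMM scaling (limma, adjusted p = 0.104), with upper quartile scaling (limma, adjusted p = 0.0824) or with edgeR on recovered fragments (adjusted p = 0.154). It was lost without any of sham rats 26, 32, 38 and 55 or TBI rats 22, 24, 52 and 56 (limma, adjusted p from 0.0509 to 0.109), whereas without rats 34 and 45 it was -0.39 ± 0.11 (limma, adjusted p = 0.0171), and without rats 26, 34, 45 and 50 it was -0.49 ± 0.13 (limma, adjusted p = 0.0148). In all, 15 of 24 alternatives lost the thalamic call.

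Ceruloplasmin, the copper ferroxidase that works beside ferroportin, changed most among the 9 members in both regions. Cp was 832, 901 and 1220 (lowest, median, highest) in sham cortex and 1861, 2424 and 3606 in TBI cortex. In thalamus it was 419, 509 and 891 in sham rats and 1454, 1914 and 4017 in TBI rats. The groups were apart in both regions, and rat 45 was the highest of both TBI groups and rat 34 of sham thalamus. The effect was 1.38 ± 0.13 in cortex (limma, adjusted p = 7.68e-06) and 1.98 ± 0.22 in thalamus (limma, adjusted p = 1.61e-05), and the ratios of the group means were 2.64 and 4.04. Of 10 astrocyte markers, 5 were higher and 2 lower in cortex and 5 were higher in thalamus, and their summed level did not overlap between sham and TBI rats (376118 to 397258 against 408874 to 453969 in cortex, 286290 to 319156 against 406579 to 467151 in thalamus). Rats 45 and 34 also had the highest summed meningeal and fibroblast markers of those groups. All 8 of these markers were higher after TBI in cortex, where sums ran from 16074 to 21727 in sham and from 22636 to 55808 in TBI rats, and 0 of 8 passed the threshold in thalamus, where sums ran from 5545 to 15011 and from 6072 to 53258. Beside both marker counts, 14.3% of all loci were higher and 14.9% lower in cortex, and 14.5% and 20.9% in thalamus. Without rats 34 and 45 the effect on Cp was 1.23 ± 0.11 in cortex (limma, adjusted p = 1.59e-05) and 1.94 ± 0.12 in thalamus (limma, adjusted p = 2.94e-07). The effect in thalamus minus that in cortex was 0.60 ± 0.28 with all libraries (limma, adjusted p = 0.202) and 0.71 ± 0.17 without these rats (limma, adjusted p = 0.0174). The part of astrocytes and of meningeal and fibroblast cells in the rise of Cp was not tested.

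**Figure D2:**
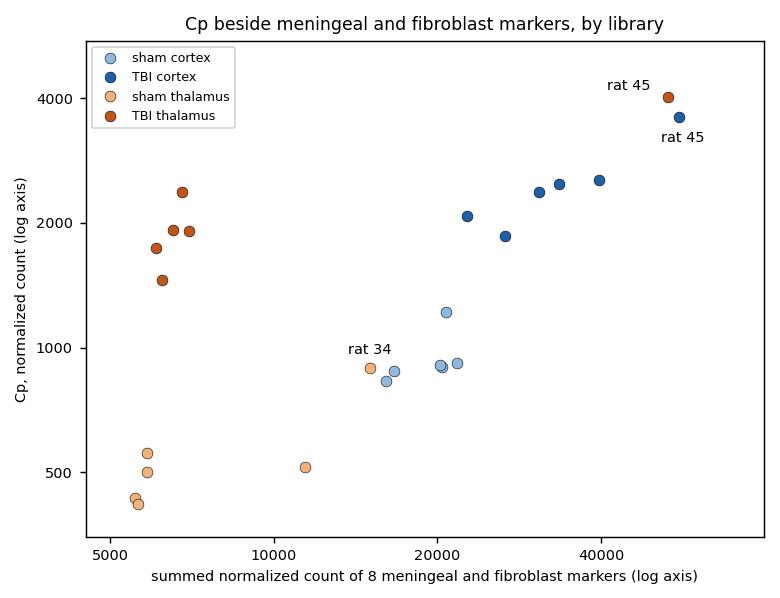
Normalized count of Cp against the summed normalized count of 8 meningeal and fibroblast markers (both log axes), 1 point per library, coloured by group. Rat 45 is at the upper right for both regions, and the other TBI thalamus libraries had Cp of 1454 or more at marker sums between 6072 and 6984, beside sham thalamus libraries that had 557 or less apart from rat 34.

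The haem oxygenases moved in opposite directions. Hmox1 was 149, 210 and 224 (lowest, median, highest) in sham cortex and 289, 404 and 565 in TBI cortex. In thalamus it was 200.2, 264 and 338 in sham rats and 579, 666 and 762 in TBI rats. No TBI library overlapped a sham library of its region. The effect was 1.08 ± 0.15 in cortex (limma, adjusted p = 0.000137) and 1.33 ± 0.11 in thalamus (limma, adjusted p = 1.32e-06), and the ratios of the group means were 2.14 and 2.50. Hmox1 kept its call in both regions under every alternative run, at adjusted p of at most 0.00606 in cortex and 0.000174 in thalamus. The difference between the regions' effects was 0.25, with a 95% interval of -0.15 to 0.66 (limma, adjusted p = 0.487).

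Hmox2, the form that neurons hold at steady levels, was 3632, 3786 and 3964 in sham cortex and 2909, 3210 and 3603 in TBI cortex. In thalamus it was 3455, 3993 and 4134 in sham rats and 2585, 3176 and 3289 in TBI rats. Again no TBI library overlapped a sham library. The effect was -0.23 ± 0.05 in cortex (limma, adjusted p = 0.00539) and -0.35 ± 0.06 in thalamus (limma, adjusted p = 0.000695), and their difference was -0.12, with a 95% interval of -0.29 to 0.05 (limma, adjusted p = 0.426). Without rats 26, 34, 45 and 50, which left 3 sham and 5 TBI rats, the cortical effect was -0.19 ± 0.08 and lost its call (limma, adjusted p = 0.134). The neuronal markers given beside Tfrc were lower in the same libraries, and their part was not tested for Hmox2 either.

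**Figure D3:**
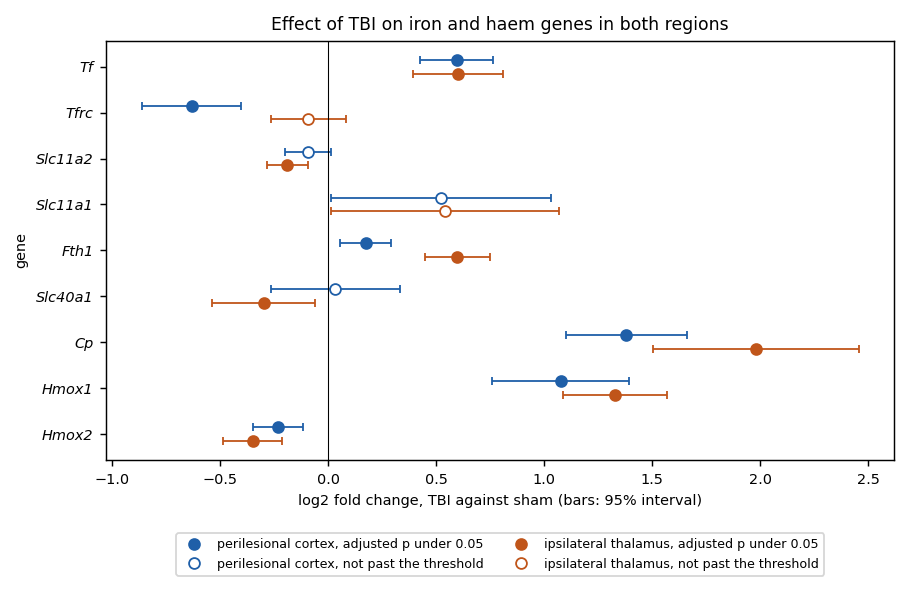
Effect of TBI on each member as the log2 fold change against sham rats (points) with its 95% interval (bars), in perilesional cortex and ipsilateral thalamus. Filled points passed an adjusted p of 0.05. The intervals of Tfrc and of Fth1 do not meet between the regions, and those of Tf nearly coincide.

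Tested directly, the TBI effect differed between the regions for 2 of 9 members, Tfrc and Fth1, both in the higher direction, where 2.72% of 15678 loci were higher and 4.54% lower. This test draws on the same libraries as the effects within each region. For Cp, Slc40a1, Hmox1, Hmox2, Tf and both Slc11 genes the difference did not pass the threshold with all libraries in the fit. At a stricter threshold of 0.01 only Fth1 remained.

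Sham rats show how these genes stand in the regions without injury. Tf, Slc40a1, Fth1, Hmox1 and Slc11a2 were higher in thalamus than in cortex and Cp and Tfrc lower, so that 5 of 9 were higher against 33.9% of 15582 loci and 2 of 9 lower against 28.3%. The regions did not overlap for 4 of 9 members (43.1% of all loci). The largest differences were 1.69 ± 0.09 for Tf (limma, adjusted p = 1.77e-10) and 1.60 ± 0.14 for Slc40a1 (limma, adjusted p = 5.36e-08), followed by 0.52 ± 0.06 for Fth1, 0.42 ± 0.13 for Hmox1 and 0.35 ± 0.04 for Slc11a2. All 10 oligodendrocyte markers were also higher in thalamus, with a median difference of 1.53. Cp was -0.80 ± 0.15 (limma, adjusted p = 0.000256). Of the 8 meningeal and fibroblast markers, 7 were lower in thalamus, and of 10 astrocyte markers, 5 were higher and 3 lower. The part of these cell types in the differences between regions was not tested.

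In TBI rats, 7 of 9 members were higher in thalamus, against 31% of 15737 loci, and 0 of 9 lower, against 26.5%. Regions did not overlap for 5 of 9 members, against 36% of all loci. The differences of Tf (1.69 ± 0.09) and Slc40a1 (1.27 ± 0.11) led again, and Fth1 stood at 0.94 ± 0.06 (limma, adjusted p = 9.10e-09). Tfrc changed sides: thalamus was -0.20 ± 0.07 against cortex in sham rats (limma, adjusted p = 0.0162) and 0.34 ± 0.12 in TBI rats (limma, adjusted p = 0.0248). The call in TBI rats was lost without the cortex library of rat 45 or the thalamus library of rat 24 (limma, adjusted p = 0.0542 and 0.0544), without rats 34 and 45 (limma, adjusted p = 0.0593) and with edgeR (adjusted p = 0.0503). Cp was -0.21 ± 0.21 (limma, adjusted p = 0.424), and -0.39 without the thalamus library of rat 45 (limma, adjusted p = 0.0357).

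Within single rats the same pattern was seen. The thalamus to cortex ratio of Tfrc was 0.773 to 0.969 in sham rats, with 0 of 6 above 1, and 1.01 to 1.99 in TBI rats, with 6 of 6 above 1. For Fth1 the ratio was 1.30 to 1.55 in sham rats and 1.78 to 2.24 in TBI rats, so the ranges were apart. For Tf it was 2.92 to 4.39 and 2.65 to 4.07, which overlap widely. Slc11a1 was higher in thalamus in 6 of 6 sham rats and 5 of 6 TBI rats. In sham rats its difference of 0.53 did not pass the threshold unpaired (limma, adjusted p = 0.106) and passed it with rat as a block (limma, adjusted p = 0.00394) or without the thalamus library of rat 38 (limma, adjusted p = 0.0211). In TBI rats it was 0.55 ± 0.21 (limma, adjusted p = 0.0346), a call that was lost without the cortex library of rat 22 or 63 or the thalamus library of rat 52, 56 or 63 (limma, adjusted p from 0.0523 to 0.0828).

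**Figure D4:**
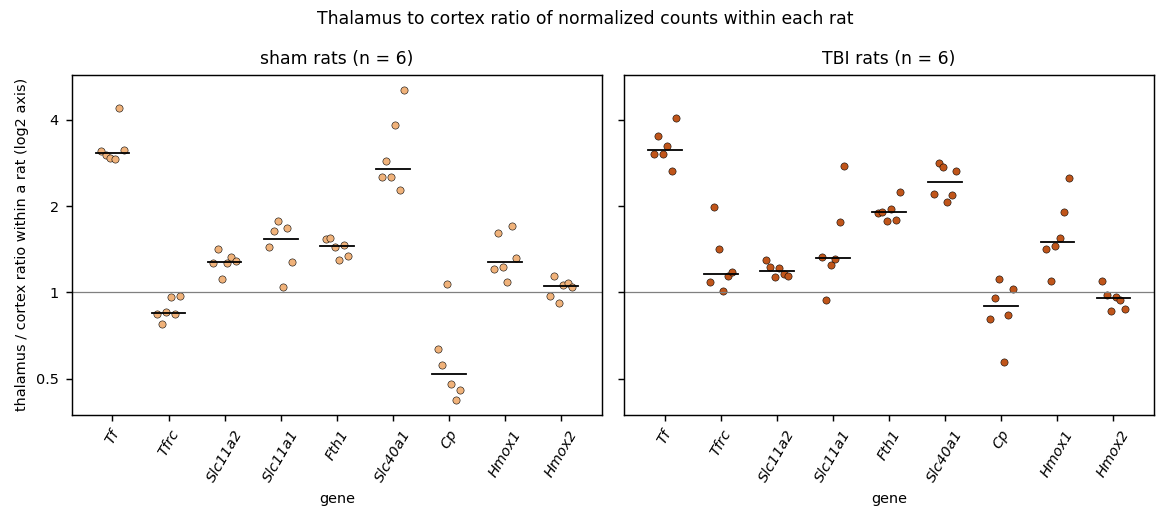
Ratio of the normalized count in thalamus to that in cortex of the same rat (log2 axis) for each member, 1 point per rat, with the median as a line, in 6 sham and 6 TBI rats. Tfrc lies below 1 in all sham rats and above 1 in all TBI rats, and the Fth1 ratios of TBI rats all lie above those of sham rats.

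Beyond the members, 6 further lists of iron and haem genes were tested. Of the genes that reduce or take up iron, in cortex 2 of 16 tested were higher and 4 lower, and in thalamus 4 were higher and 1 lower, beside the shares over all loci of 14.3% and 14.9% in cortex and of 14.5% and 20.9% in thalamus. Lcn2, a siderophore-binding protein of the innate response, rose by 1.29 ± 0.25 in cortex (limma, adjusted p = 0.00143) and 2.00 ± 0.31 in thalamus (limma, adjusted p = 0.000241). Cybrd1, a membrane ferric reductase, rose by 1.30 ± 0.16 (limma, adjusted p = 6.84e-05) and 1.01 ± 0.25 (limma, adjusted p = 0.00551). Of the STEAP metalloreductases, Steap4 rose by 1.44 in thalamus, from a range of 13.8 to 40.1 in sham rats to 45.1 to 90.5 in TBI rats (limma, adjusted p = 0.000856), and Steap2 fell by 0.53 in cortex and by 0.77 in thalamus (limma, adjusted p = 0.00520 and 0.000155).

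Mfi2, melanotransferrin, a membrane-anchored relative of transferrin, went opposite ways. It was 187 to 361 in sham cortex and 169 to 208 in TBI cortex, and 31.1 to 48.8 in sham thalamus and 70.4 to 93.5 in TBI thalamus. The thalamic groups were apart and the cortical groups overlapped at the low end of the sham range. The effect was -0.55 ± 0.13 in cortex (limma, adjusted p = 0.00686) and 0.98 ± 0.14 in thalamus (limma, adjusted p = 0.000131), and their difference of 1.52 ± 0.19 passed the test (limma, adjusted p = 1.99e-05).

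Genes of export and hepcidin control, of sensing and storage and of haem clearance were mostly without a call, as were most loci tested. Over all loci, 14.3% were higher and 14.9% lower in cortex, and 14.5% and 20.9% in thalamus. Of 8 export and hepcidin genes tested in each region, Bmp6, a ligand that drives hepcidin in the liver, was higher by 0.86 ± 0.14 in cortex (limma, adjusted p = 0.000381) and App lower by 0.19. Smad4, the shared partner of the receptor-activated SMADs, was higher by 0.19 in thalamus (limma, adjusted p = 0.0396). In thalamus Bmp6 reached 2781 in the highest library against a median of 755. Of 5 sensing and storage genes, 0 passed in cortex and only the iron chaperone relative Pcbp3 was lower in thalamus, at -0.21 (limma, adjusted p = 0.00902). Ireb2 and Aco1, the iron regulatory proteins, were at -0.16 and 0.06 in cortex and at -0.00084 and 0.12 in thalamus, with adjusted p of 0.151, 0.358, 0.995 and 0.0882 (limma).

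Of 8 genes of haem and haemoglobin clearance, the locus joining Flvcr2, a membrane transporter linked to haem and choline, with Jdp2 was lower in cortex (-0.33) and in thalamus (-0.20), and Lrp1, a receptor for haem bound to haemopexin, was higher in cortex by 0.22 (limma, adjusted p = 0.00250, 0.00732 and 0.0256). The haemoglobin scavenger receptor Cd163 was at 0.55 ± 0.21 in cortex and did not pass the threshold (limma, adjusted p = 0.0638). In thalamus its median was 72.3 in sham rats and 59.0 in TBI rats, with the highest TBI library at 271. Of 14 haem synthesis genes, 0 passed in cortex, where 14.3% of all loci were higher and 14.9% lower. In thalamus 2 were lower and 0 higher, beside 20.9% and 14.5% of all loci. The 2 were Alas1, the first enzyme of the pathway, lower by 0.41 (limma, adjusted p = 0.000160), and the mitochondrial iron importer Slc25a37, lower by 0.29 (limma, adjusted p = 0.0457). Summed over 7 erythroid markers with a locus, levels overlapped between sham and TBI rats in both regions, at 5703 to 8956 against 5458 to 8732 in cortex and 4793 to 7291 against 3851 to 9154 in thalamus, and 0 of 5 tested passed the threshold with limma.

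Iron-sulphur clusters are cofactors that cells assemble from iron, and the list is not limited to genes of mitochondria. In cortex, Isca1, Ciao1 and Glrx3 were lower and Nfs1, the cysteine desulphurase, was higher by 0.18. Of 22 iron-sulphur cluster genes tested in thalamus, 7 were lower and 0 higher, beside 20.9% and 14.5% of all loci. Changes among the 7 lay between -0.37 and -0.21. Isca1, Ciao1 and Glrx3 were lower in both regions. The medians of this list were -0.08 in cortex and -0.09 in thalamus, beside -0.01 and -0.02 over all loci tested.

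**Figure D5:**
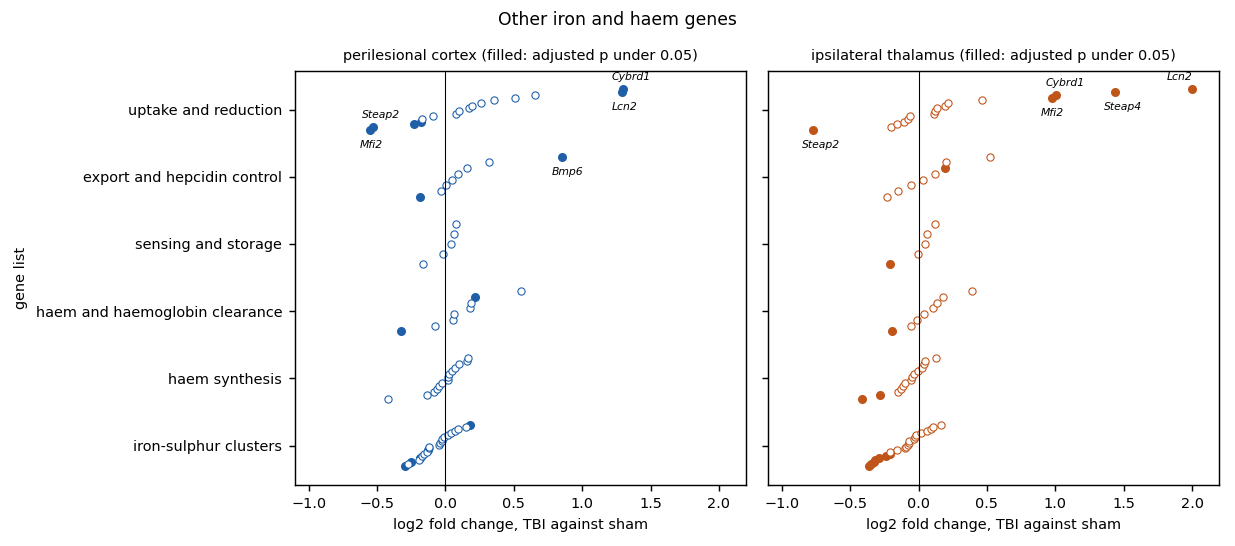
Effect of TBI (log2 fold change against sham) on 6 further lists of iron and haem genes, 1 point per gene, in perilesional cortex and ipsilateral thalamus. Filled points passed an adjusted p of 0.05, and genes past it that changed by 0.5 or more are named. Lcn2, Cybrd1 and Steap4 lie farthest to the right, and Mfi2 is on the left in cortex and on the right in thalamus.

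For each member, the 2 loci that varied most like it among rats of a group were found by Pearson's r of the deviations from the 4 group means over 24 libraries, among 15678 loci. This is a description, and both libraries of a rat enter it. Cp varied most like Svil (r = 0.932) and Slc6a13 (r = 0.932), the second of which is among the meningeal and fibroblast markers. Outlying Cp libraries of rats 50 (sham cortex), 34 (sham thalamus) and 45 (TBI thalamus) entered both values. These were not recomputed without those libraries. Tf was nearest to the locus joining ENSRNOG00000026813 and Pbld1 (r = 0.826) and to Cd9 (r = 0.806), and Tfrc to Rmdn2 (r = 0.837) and Lgalsl (r = 0.834). Fth1 was nearest to Ifngr1 (r = 0.857) and Pik3ip1 (r = 0.835), and Hmox1 to Tnfsf12 (r = 0.844) and Eef1d (r = 0.820). Hmox2 was nearest to Yars (r = 0.917) and RGD1305733 (r = 0.902), and Slc11a2 to Cs (r = 0.877) and Vps16 (r = 0.834). Slc40a1 was nearest to Mcm10 (r = 0.802) and the locus joining Haus3 and Poln (r = 0.767). Slc11a1 was nearest to CCDC78 (r = 0.847) and to Tmbim1 (r = 0.839), which is listed at the same coordinates.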

How the data were processed

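Stranded poly(A) libraries from 12 rats were sequenced on a NextSeq500. Per the labels and the study's methods, the authors aligned reads with TopHat2 (2.0.11) and Bowtie2 (2.2.2) and assembled loci with Cufflinks (2.2.1). The deposited table holds a normalized signal per locus for 24 libraries, which is the fragment count divided by a library's scaling factor (the authors' Cuffdiff scaling). It covers 42334 loci, of which 15693 carry no gene name and hold 1.90% to 2.23% of the values. Low values were whole multiples of 1 fragment in all 24 libraries, which gave fragments for each. The sham thalamus library of rat 55, with a value of 0.989 for 1 fragment, was left out of the count test for no fault seen in its values. TBI thalamus libraries of rats 22 and 45, at 1.01 and 1.02, were kept. The study's methods and the labels name different genome builds and the table names none, so no position from the table is given. A second deposited table pairs loci with names and coordinates. How reads with several matches were counted is not given in the sources used here.

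Loci that carry a name and average 10 or more in a comparison's libraries were tested with limma (3.58.1, R 4.3.3, mean trend) on log2(signal + 1), which understates changes of low genes, with Benjamini-Hochberg adjustment. edgeR (4.0.16) served as an alternative on recovered fragments. The limma step was tested on simulated data. Members, lists and the naming rule were chosen with earlier results of these data known. Other list genes were named if they passed and changed by 0.5 or more (log2), or if 3 or fewer of a list passed in a direction; Ireb2, Aco1, Cd163, Slc17a6, Slc17a7, Aif1 and the iron-sulphur genes of larger counts were named after their values were seen. Both regions came from the same rats, and a rat's 2 libraries deviated together (median correlation 0.187, over 0.1 in 10 of 12 rats), so rat numbers pair the samples and comparisons between regions were also fitted with rat as a block. Alternatives were TMM and upper quartile scaling, no filter and a mean of 50, pseudocounts of 0.1 and 5, limma-voom, a threshold of 0.01, all 24 libraries in 1 fit, leaving out each library and, chosen after seeing the data, edgeR, leaving out rats 34 and 45 (highest meningeal and fibroblast markers of their thalamus groups) and leaving out rats 26, 34, 45 and 50 (choroid plexus markers summing to over 10000 in a library). One result in cortex is not reported here.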

Additional observations from a re-analysis of the deposited data

Results flagged for a closer look

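Of 36 sets of 6 libraries (9 members in 4 groups), 4 held a library whose distance to its nearest neighbour took a larger share of the group's range than Dixon's 95% critical value for 6 samples, which chance passes in about 1 in 20 groups. Cp had 3 of them, at 1220 in sham cortex of rat 50, 891 in sham thalamus of rat 34 and 4017 in TBI thalamus of rat 45, and Slc11a1 had 1, at 239 in TBI thalamus of rat 56. The effect of TBI differed between regions, by a test of the difference itself, for Fth1 (0.42), Tfrc (0.54) and Mfi2 (1.52), where the thalamic effect was the higher one, and for Alas1 (-0.33; limma, adjusted p = 0.00763) and Isca1 (-0.20; limma, adjusted p = 0.0380), where it was the lower one.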

How the results depend on the processing

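Over all alternatives, the count of members called stayed within 1.5 times the value given in 129 of 130 refits. It was 4 to 7 in cortex, 6 to 7 in thalamus, 6 to 8 between regions in sham rats and 5 to 8 in TBI rats, and for the difference of effects it was 2 with any library left out and 1 at a threshold of 0.01. The count does not track which members were called. Without rats 34 and 45 the difference of effects lost the call of Tfrc and gained that of Cp. Of 1733 refits of single genes, 1592 kept direction and side of the threshold, 110 lost the call, 6 gained it and 25 turned direction. All 25 concern values near 0 that never passed the threshold: Slc40a1 in cortex (-0.090 to 0.085 with a library left out), and the difference of effects for Tf (-0.039 to 0.064 with a library left out, -0.031 with edgeR, -0.0023 without rats 34 and 45, the same with the replicate block) and Slc11a1 (-0.17 to 0.16 with a library left out, -0.074 with edgeR). With the replicate block, rat as a pair, Slc11a1 in sham rats gained its call (0.53) and no other member's call changed. Among the list genes, calls were lost with 1 library left out for Nfs1 (10 of 12 libraries, adjusted p up to 0.0968) and Lrp1 (5 of 12, up to 0.0618) in cortex, Smad4 (7 of 12, up to 0.0838) and Slc25a37 (8 of 12, up to 0.0975) in thalamus and the difference for Isca1 (11 of 24, up to 0.0714; limma), and for Pcbp3 in thalamus with edgeR (adjusted p = 0.0756). Without rats 26, 34, 45 and 50 in cortex, where 3 sham rats remain, Steap2, Mfi2 and App also lost theirs (adjusted p = 0.129, 0.0760 and 0.1002; limma), as did Flvcr2 in thalamus (adjusted p = 0.0999; limma). The cause was not tested. Among the members Slc11a1 had the fewest fragments, at 41 to 348 in a library, and Steap4, Lcn2 and Mfi2 of the lists were also scarce.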
